A study of Mus musculus with 19 samples.

Results

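Gene expression in cerebral microvessels was compared directly between mice exposed to smoke and mice exposed to vapour of an electronic cigarette with nicotine. The comparison took the 4 libraries titled smoke and the 3 titled Nic, chosen by title, which are 7 of the 19 libraries of the series, and no air set was subtracted. All mice were male C57BL/6, bought at 7 weeks of age. The other 12 libraries are a nicotine-free vapour group (titled Nic-free, 4 libraries) and a pair of sets of 4 libraries each, titled air and Room-air, which both carry the label of room air. The labels give no dose, no length of exposure, no hour of collection and no day, and they do not say whether each library is 1 animal. P-values therefore measure only the spread between these libraries, which may be technical. Differences are given as smoke minus Nic on the log2 scale with their standard error, so a gene that rose was higher in smoke and a gene that fell was lower in smoke. Levels are CPM (counts per 1000000 counts, normalised over the 7 libraries).

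Brain microvessels are tubes of endothelial cells sealed by tight junctions and wrapped by pericytes in a shared basement membrane, with endfeet of astrocytes around them. Because little passes between the cells, glucose, amino acids, vitamins and metals enter the brain through transporters of the endothelial membrane. Inhaled smoke carries ligands of the aryl hydrocarbon receptor and oxidants, to which cells can respond with cytochrome P450 genes and with the antioxidant genes driven by NRF2, and nicotine binds nicotinic acetylcholine receptors.

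The smoke libraries were shallower, with 7.9 to 12.6 M counts (M is 1000000) against 21.8 to 28.4 M in the Nic libraries, and the ranges did not overlap. Reads assigned to no annotated feature were 30.76 ± 1.84% in smoke (SD, n = 4) and 36.43 ± 2.98% in Nic (SD, n = 3). This difference had an exact two-sided permutation p of 0.114, where 0.0571 is the smallest p that 35 arrangements allow. On the first principal component, which held 41.7% of the variance, the Nic libraries lay at -32.9, -33.1 and -15.1 and the smoke libraries at 17.1, 45.6, 3.8 and 14.5, so smoke 2 stood farthest out and smoke 3 nearest to Nic. On the second component, which held 26% of the variance, smoke 3 stood apart at -44.2.

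The shares of counts on marker genes also differed among these libraries. Genes of oligodendrocytes, the cells that form myelin, took 1.71 to 2.48% of the counts in smoke and 0.963 to 1.57% in Nic, with no overlap. Endothelial marker genes took 0.464 to 0.596% in smoke and 0.895, 0.502 and 0.936% in Nic 1 to 3, so Nic 2 lay within the range of smoke. Pericyte markers took 0.0995 to 0.142% in smoke and 0.242, 0.137 and 0.219% in Nic 1 to 3. Markers of choroid plexus and ependyma, tissues of the brain ventricles, ranged from 0.179 to 2.72% in smoke, with smoke 3 highest, and from 0.215 to 0.727% in Nic. Neuron markers took 0.814 to 1.27% in smoke and 0.945 to 0.991% in Nic, and astrocyte markers 0.629 to 1.21% and 0.596 to 0.646%, with smoke 2 highest for both. All 22 endothelial and 11 pericyte markers were detected in the 7 libraries. Of the 123 genes named with values, 44 overlap an annotated gene on the opposite strand, Cdkn1a, Dbp, Arntl and Slc2a1 among them, and no source used here says whether reads were counted by strand. In bulk RNA such as this, fewer cells of a type and less RNA per cell cannot be told apart.

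**Figure D1:**
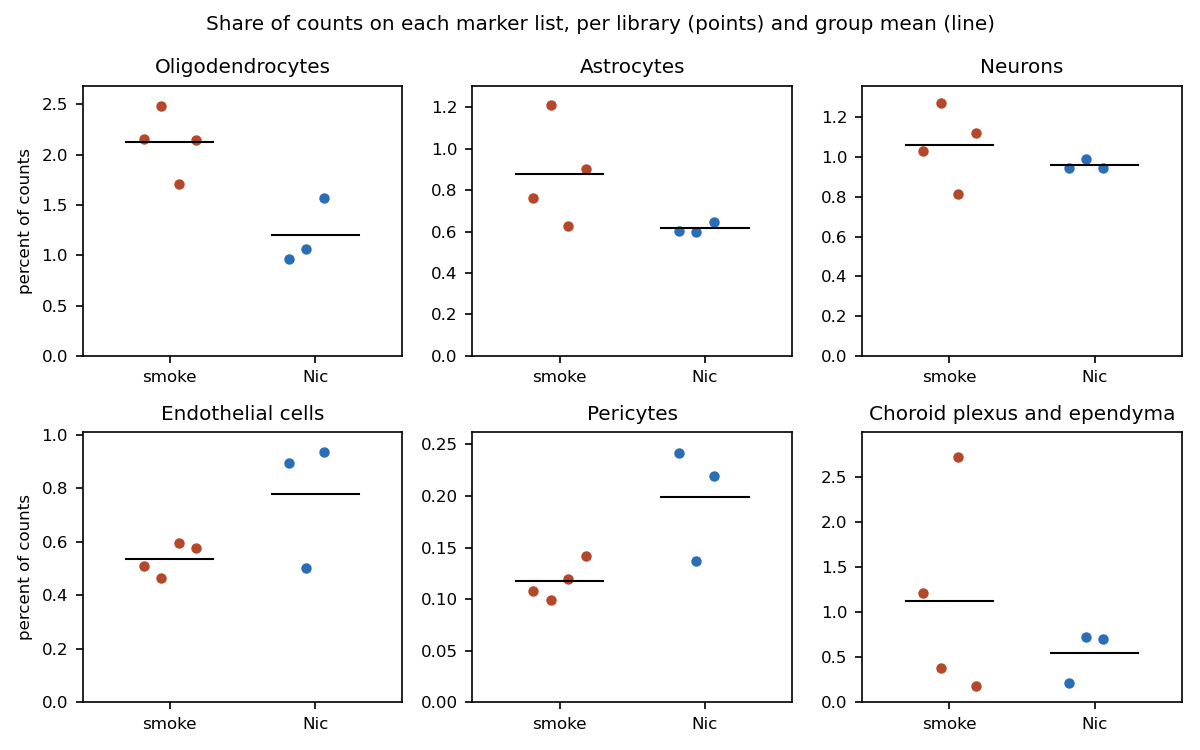
Percent of all counts that fell on each of 6 marker lists, for the 4 smoke and 3 Nic libraries. Points are libraries and lines are group means. The oligodendrocyte shares of smoke (1.71 to 2.48%) lie above those of Nic, while 1 of the 3 Nic libraries lies among the smoke libraries for endothelial genes.

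Of 15629 genes tested with edgeR's quasi-likelihood test, 490 rose (3.14%) and 559 fell (3.58%) at a Benjamini-Hochberg adjusted p under 0.05, together 1049 genes or 6.71%. The CPM of the groups did not overlap for 1043 of these genes, against 4096 (26.2%) of all genes tested. The median absolute log2 fold change of the 1049 genes was 0.689, and 196 changed by at least 1 on the log2 scale. Most calls lay just inside the threshold: 967 had an adjusted p of 0.03 or more, 82 lay under 0.03, and only Cdkn1a and Gh under 0.01.

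The number of genes called rested on single libraries. It was 2 without smoke 1, 3 without Nic 1, 36 without smoke 2, 183 without smoke 4 and 485 without Nic 2, but 1987 without smoke 3 and 2115 without Nic 3. Cdkn1a and Gh were the 2 genes that passed in all 7 of these fits, and 27 of the 1049 genes passed in at least 5. All 1049 kept their sign in each of the 21 alternative analyses that tested them, and 1034 of them had a value in all 21. Groups that do not overlap, as for 1043 of these genes, keep their order when 1 library is left out. The kept signs were thus largely fixed by the choice of genes and are no separate support for the directions. Smoke 2 was the highest smoke library for 404 of the 490 genes that rose (82.4%), against 32.8% of all genes tested, and Nic 3 was the highest Nic library for 359 of them (73.3%). The genes that rose had a median exonic length of 3146 bases and those that fell 7143 bases, against 4327 bases for all genes tested. The part of length, depth and tissue makeup in the calls was not tested, apart from the alternatives with marker lists as covariates given further on.

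**Figure D2:**
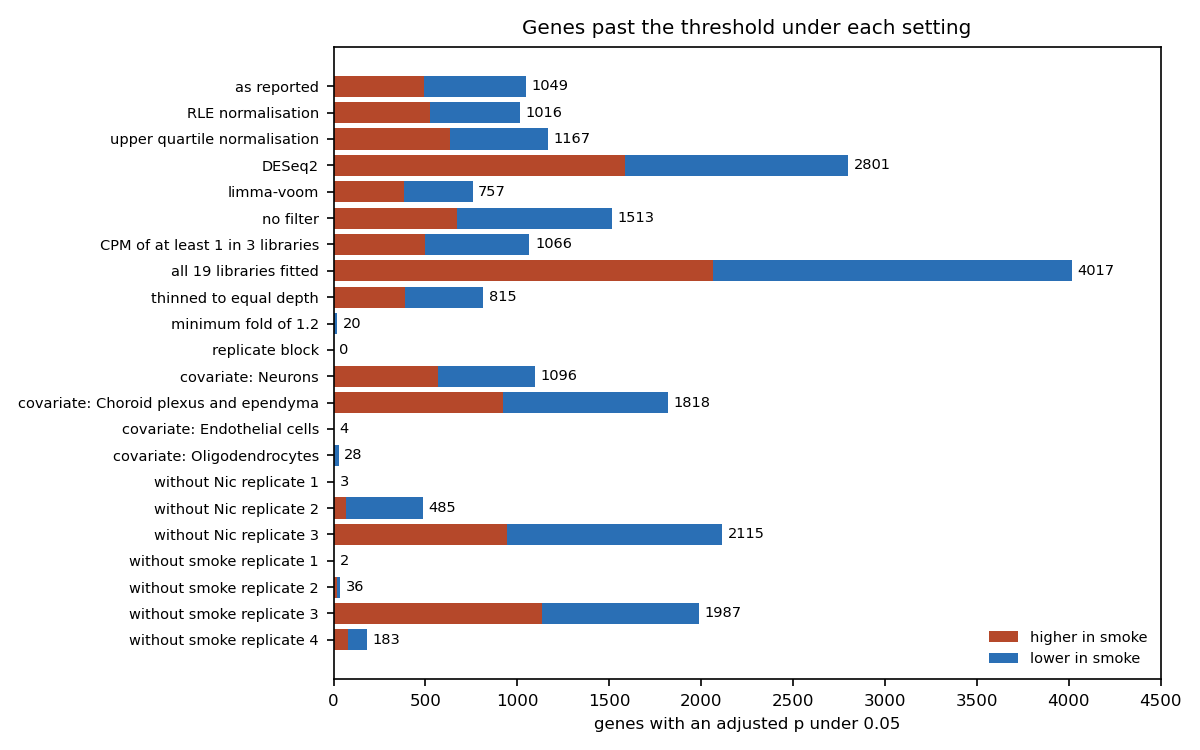
Number of genes with an adjusted p under 0.05 between smoke and Nic, as reported and under 21 alternative settings. Bars are split into genes higher and lower in smoke. The count is 1049 as reported, 2 without smoke replicate 1 and 4017 when all 19 libraries share the fit.

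A further comparison shows how far 2 sets of libraries lie apart in mice labelled with room air alone. Between the air and Room-air sets, which share no library with the smoke and Nic groups, 3952 of 16244 genes passed (24.3%), with 1798 higher (11.1%) and 2154 lower (13.3%) in air. Of the 1043 genes called between smoke and Nic that could be tested there, 885 had the same sign in air minus Room-air (84.4% of the 1049). In that comparison 465 of them passed in the same direction, which is 44.3% of the 1049 and 12.0% of the 3884 genes called between the air sets among genes tested in both. Another 11 passed in the opposite direction. The median log2 fold change of the genes that rose was 0.74 in smoke minus Nic and 0.31 in air minus Room-air, and that of the genes that fell was -0.66 and -0.31. Like the smoke libraries, the air libraries were shallower, with 9.8 to 13.5 M counts against 25.3 to 30.2 M. The labels link no air set to an exposure, so set and exposure cannot be told apart where both comparisons moved together. A test of the difference between these differences, in 1 fit of all 19 libraries, called 925 of 16557 genes (5.59%), 2.78% higher and 2.8% lower. It called 206 of the 1049 genes in the same direction (19.6%), 110 that rose and 96 that fell, and 3 in the opposite direction. That fit reuses the smoke and Nic libraries by which the 1049 genes were chosen, so these calls are no separate support.

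**Figure D3:**
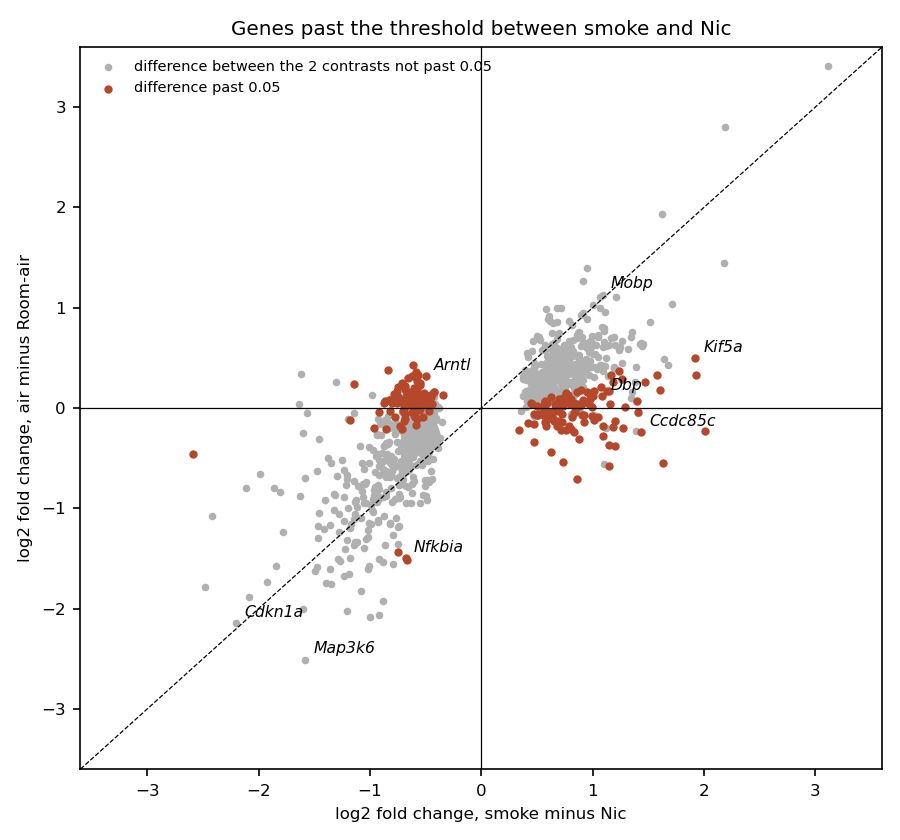
Log2 fold change of smoke minus Nic (x axis) against air minus Room-air (y axis) for the 1043 genes called between smoke and Nic and tested in both, 1 point a gene, with the dashed line marking equal change. Most points lie in the lower left and upper right (885 genes of the same sign). Of the genes whose 2 differences differ by test, Dbp and Kif5a lie nearer to the horizontal axis than to the dashed line, and Arntl lies across that axis. Others, such as Nfkbia, lie away from it, with a larger fall between the air sets.

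Among established genes of at least 5 CPM whose groups did not overlap, the largest fall was that of Cdkn1a, which encodes p21, an inhibitor of cyclin-dependent kinases that is induced by p53 and by glucocorticoids. Cdkn1a (chr17:29090976-29100727 on GRCm38) stood at 18.2, 15.4, 17.1 and 17.0 CPM in smoke 1 to 4 and at 71.5, 78.9 and 84.1 CPM in Nic 1 to 3. Each group was tight and the gap between them wide, with a log2 fold change of -2.20 ± 0.11 (adjusted p = 3.64e-05). The air set was lower than the Room-air set by nearly the same amount, at -2.15 (adjusted p = 2.26e-05), and the difference between both differences was -0.05 ± 0.19 (adjusted p = 0.906). In the normalisation over 19 libraries Cdkn1a was also low in the nicotine-free group, at 20.5 to 25.5 CPM, and high in Room-air, at 90.4 to 112 CPM.

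Some glucocorticoid-induced genes fell too. Of 20 such genes 6 fell (30%, against 3.58% of all genes) and none rose, 17 had negative values and 3 positive ones, with a list median of -0.46 against -0.02 for all genes tested. Zbtb16, a zinc finger transcription factor, stood at 17.0, 13.3, 17.1 and 21.3 CPM in smoke and 40.1, 52.4 and 51.3 CPM in Nic, with a log2 fold change of -1.47 ± 0.16 (adjusted p = 0.0119). Its smoke libraries all lay below its Nic libraries. Map3k6, a stress kinase, fell as well, with a log2 fold change of -1.58 ± 0.21, and Angptl4, a secreted inhibitor of lipoprotein lipase, had -1.35 ± 0.22. Tsc22d3, also called GILZ, stood at 83.6, 79.7, 72.6 and 92.9 CPM in smoke and 121, 163 and 130.3 CPM in Nic, a log2 fold change of -0.75 ± 0.13 (adjusted p = 0.0328). The phosphatase gene Dusp1 was the last of the 6 (-0.86 ± 0.19). Fkbp5, a co-chaperone of the glucocorticoid receptor, had a log2 fold change of -0.52 ± 0.19 and missed the threshold (adjusted p = 0.0965). Between the air sets 14 of the 20 genes were lower and 1 higher in air (against 13.3% and 11.1% of all genes), with a median of -1.12. The drop of Tsc22d3 was smaller in smoke minus Nic than in air minus Room-air (-1.43), a difference of 0.70 ± 0.19 (adjusted p = 0.0414).

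Of 31 transporter genes of the barrier 10 fell, or 32.3% against 3.58% of all genes, and none rose, with a list median of -0.41. Slc2a1, the GLUT1 glucose transporter (chr4:119108711-119137983), stood at 435, 403, 421 and 519.8 CPM in smoke and 846, 656 and 965 CPM in Nic, a log2 fold change of -0.89 ± 0.16 (adjusted p = 0.0344). The highest smoke library lay below the lowest Nic library, Nic 2. The thiamine transporter gene Slc19a3 was at 19.9, 19.7, 19.2 and 21.3 CPM in smoke and 42.6, 29.4 and 43.0 CPM in Nic (-0.94 ± 0.14). The zinc transporter gene Slc39a10 (-0.59 ± 0.12) and the insulin receptor gene Insr (-0.51 ± 0.11) fell by less. The others were the monocarboxylate transporter gene Slc16a1 at -0.91, the amino acid transporter genes Slc7a1 (-0.66) and Slc7a5 (-0.67), the taurine transporter gene Slc6a6 (-0.67), the zinc and manganese carrier gene Slc39a8 (-0.89) and the lipoprotein receptor gene Lrp8 (-0.46). Between the air sets 19 of the 31 were lower in air (against 13.3% of all genes), with a median of -0.48, and Slc2a1 had -1.54 (adjusted p = 2.33e-05). As for the endothelial marker shares given earlier, Slc2a1 and Slc19a3 were lowest in Nic 2 among the Nic libraries. The part of the endothelial share in these values was not tested beyond the fit with that list as a covariate. None of the 10 passed in the fits without smoke 1, without smoke 2 or without Nic 1.

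The efflux pump and lipid transporter genes did not pass. Abcb1a, which encodes P-glycoprotein, had -0.49 ± 0.18 (adjusted p = 0.11), Abcg2 had -0.51 ± 0.15 (adjusted p = 0.0622) and Mfsd2a, a carrier of lysolipids that carry omega-3 fatty acids, had -0.58 ± 0.18 (adjusted p = 0.0716). The transferrin receptor gene Tfrc had -0.41 ± 0.19 (adjusted p = 0.165). All 4 values were negative.

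Junction genes were mostly not called. Of 25 genes of tight and adherens junctions, 1 fell, Afdn, which encodes the scaffold afadin (144 to 174 CPM in smoke, 215 to 234 in Nic, -0.47 ± 0.11). The share of 4.0% was near the 3.58% of all genes. Cldn5, the main claudin of brain endothelium, stood at 314, 384, 342 and 380.4 CPM in smoke and 625, 249 and 656 CPM in Nic, so that Nic 2 lay below all 4 smoke libraries (-0.52 ± 0.28, adjusted p = 0.231). Ocln, which encodes occludin, stood at 41.8, 33.1, 66.7 and 45.1 CPM in smoke and 81.5, 56.7 and 84.9 CPM in Nic, where smoke 3 lay above Nic 2 (-0.67 ± 0.22, adjusted p = 0.0862). The scaffold gene Tjp1 had -0.27 ± 0.13 (adjusted p = 0.183). Among 10 transcytosis and caveola genes edgeR called 0, with 5 at an unadjusted p under 0.05, DESeq2 called 3 and limma-voom 0. Over all genes, 4860 of 15629 had an unadjusted p under 0.05 with edgeR. DESeq2 called 2801 of 14845 genes and limma-voom 757 of 15629. Such counts, here and for later lists, are to be read beside these and are no result of the list by themselves. Of 21 genes of endothelial Wnt and norrin signalling, the norrin gene Ndp rose (0.86 ± 0.22, adjusted p = 0.05 after rounding) and Reck, which encodes a membrane protein, fell (-0.50 ± 0.13). Each was 4.76% of the list, near the shares of all genes that rose (3.14%) and fell (3.58%).

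**Figure D4:**
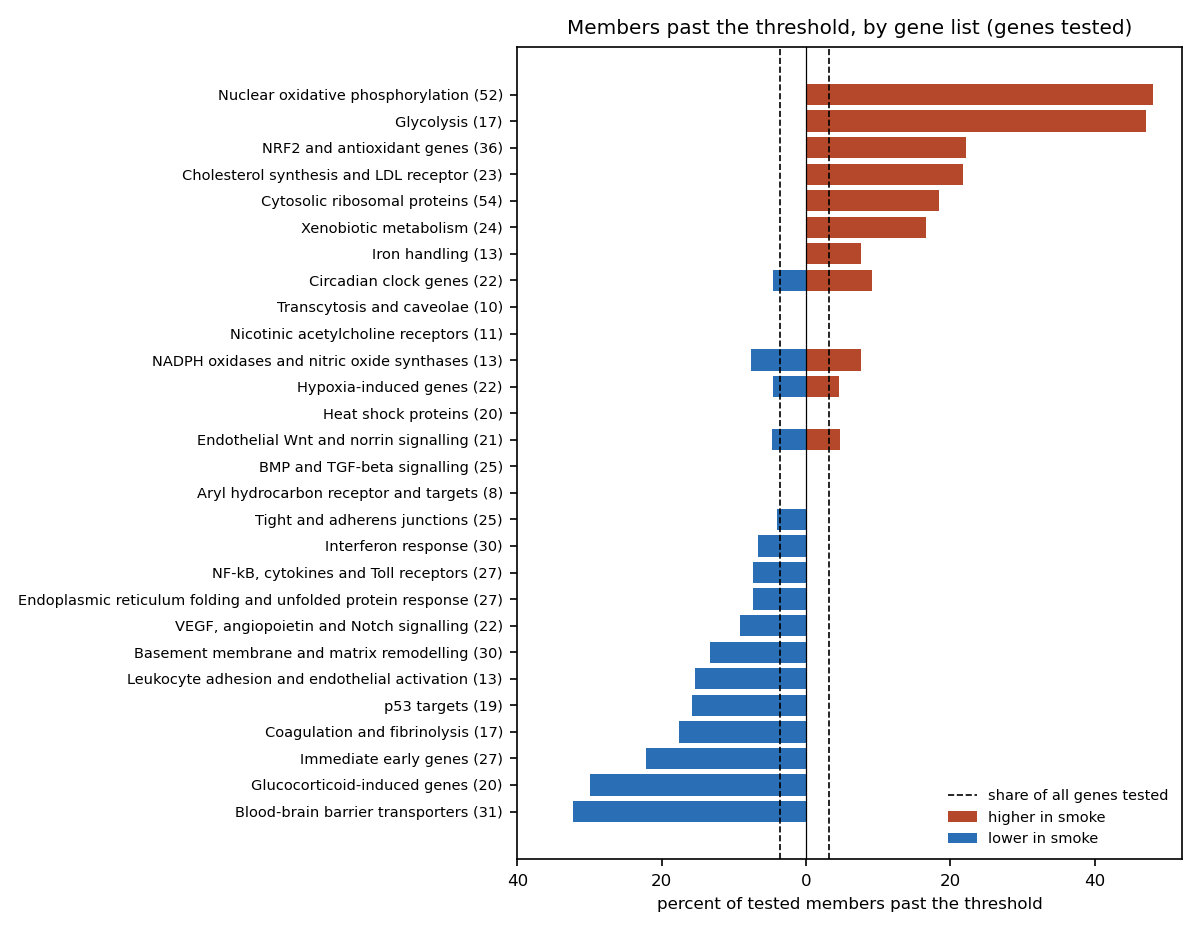
Percent of tested members past an adjusted p of 0.05 between smoke and Nic in 28 gene lists, to the right for genes higher and to the left for genes lower in smoke, with the number tested in brackets. Dashed lines mark the shares of all genes tested (3.14% higher, 3.58% lower). Oxidative phosphorylation (48.1%) and glycolysis (47.1%) reach farthest right, barrier transporters (32.3%) and glucocorticoid-induced genes (30%) farthest left.

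Of 17 coagulation and fibrinolysis genes 3 fell (17.6%, against 3.58% of all genes) and none rose, and 4 of the 17 had positive values. The 3 encode an activator of fibrinolysis and a pair of anticoagulants of the vessel wall. Plat, which encodes tissue plasminogen activator, the protease that turns plasminogen into plasmin (chr8:22757727-22782844), stood at 74.1, 69.2, 77.8 and 82.6 CPM in smoke and 220.3, 161 and 248 CPM in Nic. The groups did not overlap, and the log2 fold change was -1.46 ± 0.15 (adjusted p = 0.0119). Thbd, which encodes thrombomodulin, stood at 50.6, 47.1, 48.4 and 55.8 CPM in smoke and 129, 66.1 and 153 CPM in Nic, with Nic 2 nearest to smoke (-1.2 ± 0.24, adjusted p = 0.0381). The third, Tfpi, an inhibitor of tissue factor, had -0.64 ± 0.16. In air minus Room-air Plat had -1.18 and Thbd -1.0, and 10 of the 17 genes were lower in air (against 13.3% of all genes). Plat passed in 18 of the 21 alternatives.

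Immediate early genes respond within minutes to signals at the cell surface. Of 27 tested 6 fell (22.2%, against 3.58% of all genes) and none rose, with a median of -0.32. Klf2, a transcription factor induced by blood flow, stood at 65.1, 73.1, 55.2 and 66.9 CPM in smoke and 137, 91.6 and 166 CPM in Nic (-1.02 ± 0.18, adjusted p = 0.0341). Klf6 stood at 38.4, 42.5, 50.3 and 52.3 CPM and 101, 73.6 and 90.1 CPM (-0.94 ± 0.14, adjusted p = 0.0286), and its smoke libraries all lay below Nic. Klf4 had -1.06 ± 0.23, Fosl2, a partner in the AP-1 factor, -0.67 ± 0.13, and the phosphatase genes Dusp1 and Dusp6 -0.86 and -0.55. Apold1, an early response gene of endothelial cells, was among the 12 largest falls, at 14.5, 10.6, 16.4 and 15.5 CPM in smoke and 36.5, 26.4 and 47.8 CPM in Nic (-1.36 ± 0.21). In air minus Room-air Klf2 had -1.61, Klf6 -0.48 and Apold1 -1.61.

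Some pericyte markers fell. Of 11 such genes 3 fell (27.3%, against 3.58% of all genes) and none rose, and all 11 had negative values. Abcc9 and Kcnj8 encode the SUR2 and Kir6.1 subunits of an ATP-sensitive potassium channel. Abcc9 stood at 25.7, 20.3, 30.9 and 29.9 CPM in smoke and 77.4, 45.0 and 53.5 CPM in Nic (-1.13 ± 0.20, adjusted p = 0.0332), and Kcnj8 had -0.96 ± 0.21. Rgs5, a regulator of G protein signalling, stood at 439, 392, 489 and 570.0 CPM in smoke and 1055, 617 and 1004 CPM in Nic (-0.92 ± 0.21). In each case Nic 2 was the lowest Nic library. Between the air sets all 11 pericyte markers were lower in air (against 13.3% of all genes). Smooth muscle markers had 0 calls of 10 with edgeR, 1 at an unadjusted p under 0.05, 1 with DESeq2 and 0 with limma-voom, and their list median was 0.06.

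Of 30 basement membrane and matrix genes 4 fell (13.3%, against 3.58% of all genes) and none rose, and 10 of the 30 had positive values. These were the integrin genes Itga6 (63.6 to 78.5 CPM in smoke, 94.0 to 159.8 in Nic, -0.92 ± 0.17) and Itga1 (-0.93 ± 0.20), the collagen IV gene Col4a1 (176 to 204 and 253 to 316 CPM, -0.63 ± 0.12) and the nidogen gene Nid1 (-0.96 ± 0.22). In the air set 23 of the 30 were lower than in Room-air (against 13.3% of all genes), with a median of -0.68. The fibroblast marker Dcn, which encodes decorin, fell (-0.76 ± 0.15), 1 of 13 of its list (7.69%, against 3.58% of all genes). Of 22 genes of VEGF, angiopoietin and Notch signalling 2 fell (9.09%, against 3.58% of all genes), the neuropilin genes Nrp1 and Nrp2, which encode co-receptors for VEGF. Nrp1 stood at 63.4, 57.7, 73.3 and 74.2 CPM in smoke and 154, 117 and 107 CPM in Nic (-0.90 ± 0.15, adjusted p = 0.0289). In air minus Room-air it had -0.27, and the test of the difference gave an adjusted p of 0.062. Nrp2 had -0.58 ± 0.14. Among 25 BMP and TGF-beta genes edgeR called 0, with 4 at an unadjusted p under 0.05, DESeq2 called 3 and limma-voom 0. The endothelial marker list had 1 call of 22 (4.55%, near the 3.58% of all genes), the adhesion receptor gene Adgrl4 (-0.99 ± 0.23). Its list median was -0.54, and 21 of the 22 values were negative.

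Inflammatory genes were not higher in smoke by this test. Of 27 genes of NF-kB, cytokines and Toll receptors 2 fell (7.41%, against 3.58% of all genes) and none rose. Nfkbia, the inhibitor of NF-kB that NF-kB itself induces, stood at 64.4, 69.2, 56.9 and 77.6 CPM in smoke and 106, 99.6 and 116 CPM in Nic (-0.68 ± 0.12, adjusted p = 0.0332). The Toll receptor gene Tlr7 had -0.81 ± 0.20. Tnf, Il1b, Il6, Ccl2, Ccl3, Ccl4 and Ccl5 were too low to be tested, with at most 23 counts in any of the 7 libraries. Of 30 interferon genes 2 fell (6.67%, against 3.58% of all genes), Rsad2 (-0.81 ± 0.16) and Ifit1 (-0.69 ± 0.17), both antiviral effectors. Of 13 leukocyte adhesion and endothelial activation genes 2 fell (15.4%, against 3.58% of all genes), Thbd and the adhesion molecule gene Alcam (-0.50 ± 0.11). Icam1 stood at 32.1, 19.3, 15.5 and 14.8 CPM in smoke and 13.8, 7.82 and 33.9 CPM in Nic (0.14 ± 0.49, adjusted p = 0.873), and Vcam1 had 0.05 ± 0.28 (adjusted p = 0.914). The highest library of both genes was Nic 3. Of 15 microglia markers edgeR called 0, with 3 at an unadjusted p under 0.05, DESeq2 called 1 and limma-voom 0. Among them Csf1r, the receptor for colony stimulating factor 1, had 0.39 ± 0.16 (adjusted p = 0.133), and it differed from the air sets by 0.63 ± 0.17 (adjusted p = 0.0363). Of 8 perivascular macrophage markers 1 fell (12.5%, against 3.58% of all genes), Cd163, a receptor for haemoglobin (-1.04 ± 0.26).

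Of 19 p53 targets 3 fell, Cdkn1a and 2 others (15.8%, against 3.58% of all genes), and none rose. Pmaip1, which encodes the death factor NOXA, had -1.13 ± 0.19 and Fas, a death receptor, had -1.01 ± 0.19. The list median was -0.09, close to that of all genes. Of 27 endoplasmic reticulum genes the transcription factor gene Xbp1 (-0.54 ± 0.13) and Sel1l, of the degradation machinery (-0.41 ± 0.10), fell (7.41%, against 3.58% of all genes). Of 20 heat shock genes edgeR called 0, with 2 at an unadjusted p under 0.05, and DESeq2 and limma-voom called 0. Nos2, which encodes inducible nitric oxide synthase, was low throughout, at 2.50, 2.52, 2.61 and 2.54 CPM in smoke and 6.17, 4.10 and 7.59 CPM in Nic (-1.22 ± 0.23, adjusted p = 0.0357). Ddah1, an enzyme that clears methylarginine inhibitors of nitric oxide synthases, rose (92.0 to 224 CPM in smoke, 57.6 to 73.0 in Nic, 1.12 ± 0.27). These were the 2 calls among 13 NADPH oxidase and nitric oxide synthase genes, 7.69% in each direction, against 3.14% higher and 3.58% lower of all genes.

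The rest of the 12 largest falls were genes of several functions. Slfn5, an interferon-inducible Schlafen gene, stood at 13, 15.5, 17.1 and 15.5 CPM in smoke and 50.2, 27.8 and 61.4 CPM in Nic (-1.60 ± 0.24). The zinc finger gene Zfp382 was tight in both groups, at 2.50, 2.24, 1.87 and 2.14 CPM and 6.26, 6.92 and 6.45 CPM (-1.58 ± 0.17, adjusted p = 0.0119). Inhba, a subunit of activin, had -1.46 ± 0.22, and its air set difference was -0.31. The others were Ret, the receptor for GDNF family ligands (-1.46 ± 0.30), Igsf9b, a synaptic adhesion molecule gene (-1.41 ± 0.19), and Asb4, a ubiquitin ligase adaptor gene (-1.80 ± 0.41).

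Apart from Gh, the largest rises by the same rule were Myom3 and Kif5a. Kif5a, a kinesin heavy chain of neurons that moves cargo along axons (chr10:127225696-127263348), stood at 6676, 13691, 5109 and 7741 CPM in smoke and 1587, 1879 and 3103 CPM in Nic. All smoke libraries lay above all Nic libraries, and smoke 2 was by far the highest, at a log2 fold change of 1.92 ± 0.38 (adjusted p = 0.0381). The air sets differed by 0.50, and the difference between both was 1.43 ± 0.37 (adjusted p = 0.0338). Kif5a did not pass without smoke 2, and it passed in 2 of the 7 fits that leave out a library. Neuron markers as a list showed no such rise: edgeR called 0 of 20, with 4 at an unadjusted p under 0.05, DESeq2 called 2 and limma-voom 0, and Camk2a, a kinase of excitatory neurons, had 0.83 ± 0.27 (adjusted p = 0.0828). In the list of striatal, cortical and hippocampal neurons 2 of 16 fell (12.5%, against 3.58% of all genes) and none rose. They were the dopamine receptor gene Drd1 (19.5 to 23.9 CPM in smoke, 28.8 to 38.1 in Nic, -0.69 ± 0.13) and the opioid peptide gene Pdyn (-0.49 ± 0.13).

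Of 13 astrocyte markers 2 rose (15.4%, against 3.14% of all genes) and none fell. Positive values were held by 10 of the 13, the list median was 0.36, and 1 marker had all smoke libraries below Nic. Aldoc, the aldolase of brain, stood at 1301, 2494, 810.2 and 1244 CPM in smoke and 457, 509 and 659 CPM in Nic (1.43 ± 0.34, adjusted p = 0.0438). Aldh1l1, an enzyme of folate metabolism, stood at 109.8, 185, 92.8 and 105 CPM and 47.4, 52.0 and 62.8 CPM (1.18 ± 0.23), and it differed from the air sets by 0.93 ± 0.22 (adjusted p = 0.0282). The other large rises after Gh were Myom3, a sarcomere gene (4.07 to 14.8 CPM in smoke, 1.64 to 2.36 in Nic, 1.93 ± 0.41), Baalc (1.64 ± 0.34), Luzp2 (1.60 ± 0.28), Plekho2 (1.45 ± 0.31), the docking protein gene Dok6 (1.45 ± 0.31), Ccdc85c (1.43 ± 0.30), the asparaginase-like gene Asrgl1 (1.42 ± 0.28), Ston2, an adaptor of synaptic vesicle endocytosis (1.41 ± 0.20), and the mitochondrial carrier gene Slc25a34 (1.40 ± 0.28). Smoke 2 was the highest of the 7 libraries for all 9 of these genes. Of the 9, Myom3, Luzp2, Ccdc85c, Ston2 and Slc25a34 passed the test of the difference from the air sets, by 1.33 to 1.67 on the log2 scale. As that test reuses the libraries by which these genes were chosen, it is no separate support.

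Of 11 oligodendrocyte markers 3 rose (27.3%, against 3.14% of all genes) and none fell. Only 7 of the 11 had positive values, the list median was 0.07, and 1 marker had all smoke libraries below Nic. Mobp, a gene of the myelin sheath, stood at 4830, 6001, 3904 and 4652 CPM in smoke and 1587, 2025 and 3212 CPM in Nic (1.09 ± 0.27, adjusted p = 0.0456), and Opalin (0.64 ± 0.13) and Ermn (0.58 ± 0.13) rose by less. The air set was higher than the Room-air set by 1.13 for Mobp, 0.85 for Opalin and 0.98 for Ermn. Of 9 precursor markers edgeR called 0, with 5 at an unadjusted p under 0.05, DESeq2 called 3 and limma-voom 0. With the mean log2 CPM of the oligodendrocyte list as a covariate 28 genes were called in all, and with that of the endothelial list 4.

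Of 52 nuclear genes of oxidative phosphorylation 25 rose (48.1%, against 3.14% of all genes) and none fell, and 51 had positive values, with a median of 0.62. Cox4i1, a subunit of cytochrome c oxidase, stood at 591, 905, 507 and 529.8 CPM in smoke and 276, 277 and 350.1 CPM in Nic (1.07 ± 0.22, adjusted p = 0.0381). Its smoke libraries all lay above Nic. Uqcr11 and Uqcrq, of complex III, had 1.05 ± 0.21 and 0.98 ± 0.20, and Cox6c 0.74 ± 0.15. The 13 mitochondrially encoded protein genes were listed at 0 in every library, so respiratory chain subunits made in the mitochondrion were not measured. In the air set 28 of the 52 were higher than in Room-air (against 11.1% of all genes) and none lower, with a median of 0.34. The list held no call without smoke 1, without smoke 2 or without Nic 1, while its median stayed between 0.49 and 0.75 over the 7 fits that leave out a library.

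Genes of cytosolic ribosomal proteins had positive values in 54 of 54 cases, with a median of 0.75, and 10 of them rose (18.5%, against 3.14% of all genes). Rpsa stood at 379.9, 571, 281 and 333 CPM in smoke and 158, 159.7 and 223 CPM in Nic (1.12 ± 0.24), Rpl3 had 0.88 ± 0.19, Rps9 0.81 ± 0.19 and Rpl4 0.76 ± 0.18. Between the air sets 45 of the 54 were higher in air (against 11.1% of all genes) and none lower. Ribosomal protein genes have many processed copies in the genome, so their counts depend on how reads that match several places were treated.

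Of 17 glycolysis genes 8 rose (47.1%, against 3.14% of all genes) and none fell, with a median of 0.55. Between the air sets 2 were higher in air (against 11.1% of all genes) and none lower, with a median of 0.21. Ldhb, a subunit of lactate dehydrogenase, stood at 346, 414, 346 and 259 CPM in smoke and 153, 185 and 218 CPM in Nic (0.88 ± 0.18, adjusted p = 0.0381). Eno1, an enolase, stood at 270.3, 337, 301 and 245 CPM and 159, 191 and 197 CPM (0.66 ± 0.14), with no overlap, while the air sets differed by 0.04. The phosphofructokinase genes Pfkm and Pfkl had 0.62 ± 0.14 and 0.47 ± 0.11, and Pgk1, which encodes phosphoglycerate kinase, 0.61 ± 0.15. The difference from the air sets passed for Eno1 at 0.63 ± 0.16 (adjusted p = 0.032) and for Pgk1 at 0.67 ± 0.18 (adjusted p = 0.0363). In the hypoxia list, Pgk1 rose and Slc2a1 fell, 2 of 22 genes, so the members that moved went opposite ways. Each was 4.55% of the list, near the shares of all genes that rose (3.14%) and fell (3.58%).

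Of 36 antioxidant genes and NRF2 targets 8 rose (22.2%, against 3.14% of all genes) and none fell, and Nqo1 and Hmox1, the best known inducible targets of NRF2, did not pass. The 36 had a median of 0.39. Prdx5, a peroxiredoxin, stood at 154, 178, 154 and 114 CPM in smoke and 73.3, 78.3 and 88.0 CPM in Nic (0.91 ± 0.15, adjusted p = 0.0299). Sod1, the copper-zinc superoxide dismutase, stood at 174, 216, 158 and 147 CPM and 100.1, 89.0 and 123 CPM (0.74 ± 0.16). Prdx2 had 0.59 ± 0.12 and Me1, the malic enzyme that makes NADPH, 0.80 ± 0.14. The other 4 were Gstm5 at 1.01, Prdx6 at 0.84, Gpx4 at 0.69 and Tkt at 0.58. Nqo1 stood at 7.99, 3.91, 15.8 and 5.0 CPM in smoke and 4.08, 6.22 and 6.45 CPM in Nic, overlapping, with smoke 3 highest (0.57 ± 0.42, adjusted p = 0.371). Hmox1, which encodes haem oxygenase 1, had 0.19 ± 0.24 (adjusted p = 0.606). Between the air sets 8 of the 36 were higher and 4 lower in air (against 11.1% and 13.3% of all genes), with a median of 0.12.

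Of 24 genes of enzymes that act on foreign compounds 4 rose (16.7%, against 3.14% of all genes) and none fell. The test of the difference from the air sets, which reuses the smoke and Nic libraries, called 4 of the list higher, against 2.78% of all genes. Aldh7a1, an aldehyde dehydrogenase, stood at 152, 223, 137 and 146 CPM in smoke and 81.4, 85.3 and 97.4 CPM in Nic (0.90 ± 0.17, adjusted p = 0.0366), with a difference from the air sets of 0.72 ± 0.17 (adjusted p = 0.0249). Maob, which encodes monoamine oxidase B, stood at 38.7, 47.7, 58.9 and 33.9 CPM and 20.8, 25.5 and 26.7 CPM (0.88 ± 0.19). In the air sets Maob had -0.31, and the difference of differences was 1.2 ± 0.23 (adjusted p = 0.0177). Ephx2, the soluble epoxide hydrolase, had 0.91 ± 0.19, and Cbr1, a carbonyl reductase, 0.47 ± 0.11. In the iron list Aco1, which encodes the cytosolic aconitase that acts as iron regulatory protein 1, rose (0.42 ± 0.10), 1 of 13 genes (7.69%, against 3.14% of all genes). It differed from the air sets by 0.58 ± 0.13 (adjusted p = 0.0233).

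Targets of the aryl hydrocarbon receptor did not separate smoke from nicotine vapour. Of 8 genes edgeR called 0, with 3 at an unadjusted p under 0.05, and DESeq2 and limma-voom called 0. Cyp1a1, the receptor's classical target, had at most 2 counts in any of the 7 libraries and was not tested. Cyp1b1 stood at 6.07, 6.01, 11 and 14.3 CPM in smoke and 15.6, 13.7 and 19.8 CPM in Nic (-0.79 ± 0.29, adjusted p = 0.102). The feedback inhibitor genes Ahrr and Tiparp had 0.12 ± 0.33 and -0.20 ± 0.15, with adjusted p of 0.83 and 0.378. Cyp1b1 was lower in smoke 1, 2 and 3 than in any Nic library, but smoke 4 lay above Nic 2.

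Genes of nicotinic acetylcholine receptors did not pass either. Of 11 tested edgeR called 0, with 4 at an unadjusted p under 0.05, DESeq2 called 1 and limma-voom 0, and 5 more were too low to test. Chrna7 stood at 3.27, 3.64, 2.93 and 3.65 CPM in smoke and 4.21, 5.66 and 4.78 CPM in Nic (-0.54 ± 0.18, adjusted p = 0.0884). Chrnb2 stood at 43.0, 41.0, 35.1 and 41.2 CPM and 51.6, 49.1 and 48.0 CPM (-0.31 ± 0.10, adjusted p = 0.0818). Its smoke libraries all lay below Nic, by a small margin. Lynx1, which encodes a protein that binds these receptors and dampens them, had 0.58 ± 0.21 (adjusted p = 0.0972).

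Of 23 genes of cholesterol synthesis and LDL uptake 5 rose (21.7%, against 3.14% of all genes) and none fell. The list median was 0.31. Between the air sets 3 were higher and 2 lower in air (against 11.1% and 13.3% of all genes), with a median of 0.01. Hmgcs1, the synthase near the start of the mevalonate pathway, which builds cholesterol, stood at 179.6, 285, 225 and 215 CPM in smoke and 122, 138 and 117 CPM in Nic (0.85 ± 0.16, adjusted p = 0.0355). Mvd, a decarboxylase further down, stood at 23.0, 32.9, 26.6 and 25.1 CPM and 12.8, 13.3 and 14.7 CPM (0.98 ± 0.14, adjusted p = 0.0286). The kinase genes Mvk and Pmvk had 0.74 ± 0.15 and 0.77 ± 0.12, and Srebf1, which encodes a sterol-responsive transcription factor, 0.48 ± 0.11. For Hmgcs1, Mvd, Mvk and Pmvk all smoke libraries lay above all Nic libraries.

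Of 22 clock genes 3 passed, 2 higher in smoke (9.09%, against 3.14% of all genes) and 1 lower (4.55%, against 3.58%). In the clock, the activator encoded by Arntl (BMAL1) binds E-boxes and drives output genes such as Dbp, and the products of other clock genes repress it. Dbp, a transcription factor of the clock output (chr7:45705088-45710203), stood at 168, 199, 142 and 176 CPM in smoke and 84.8, 77.1 and 80.6 CPM in Nic. The groups lay far apart, with a log2 fold change of 1.08 ± 0.13 (adjusted p = 0.0134). Arntl (chr7:113207465-113314126) moved the other way, at 38.1, 39.1, 38.3 and 36.0 CPM in smoke and 52.7, 55.7 and 51.9 CPM in Nic (-0.50 ± 0.09, adjusted p = 0.0333). The repressor gene Bhlhe41 rose (66.1 to 78.2 CPM in smoke, 43.1 to 49.6 in Nic, 0.59 ± 0.11). These were the 3 calls, and the list median was 0.01. Per1 was level, at 134 to 144 CPM in smoke and 136 to 152 in Nic (-0.09 ± 0.09), and Nr1d1, which encodes the repressor REV-ERB alpha, had 0.40 ± 0.14 (adjusted p = 0.093).

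Of the 3 called clock genes, Bhlhe41 passed in the same direction between the air sets and Dbp and Arntl did not. Bhlhe41 was higher in air than in Room-air by 0.44 (adjusted p = 0.00398), and the difference between both differences was 0.16 ± 0.12 (adjusted p = 0.42). Dbp differed between them by 0.12 (adjusted p = 0.449) and Arntl by 0.32 (adjusted p = 0.0219), the reverse of its sign in smoke minus Nic. The test of the difference gave 0.97 ± 0.17 for Dbp (adjusted p = 0.0106), -0.80 ± 0.11 for Arntl (adjusted p = 0.00337), 0.96 ± 0.17 for Per1 (adjusted p = 0.0114) and 0.68 ± 0.18 for Nr1d1 (adjusted p = 0.0375). For Per1 that difference came from the air sets, where it was -1.04. In the normalisation over 19 libraries the smoke libraries had 141 to 196 CPM of Dbp, against 72.2 to 96.3 in air and 62.4 to 85.1 in Room-air, and the nicotine-free group had 123 to 152. Arntl stood at 36.3 to 38.5 CPM in smoke and at 32.0 to 36.2 in the nicotine-free group, so neither pattern was particular to smoke. Whether the groups were collected at the same hour was not tested, as the labels give no hour.

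**Figure D5:**
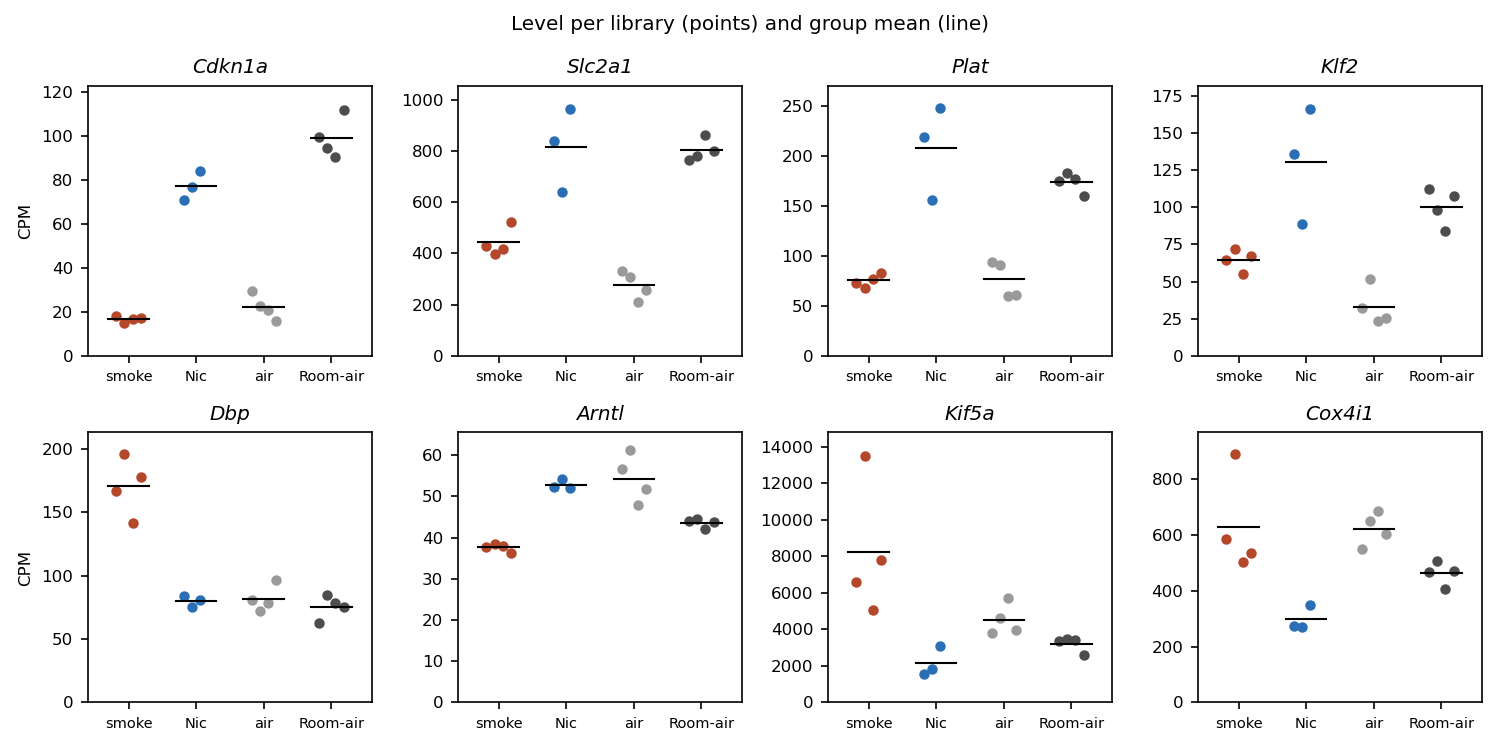
CPM of 8 genes, normalised over all 19 libraries, in the smoke, Nic, air and Room-air libraries (points) with group means (lines), each axis starting at 0. Cdkn1a, Slc2a1, Plat and Klf2 are low in smoke and air and high in Nic and Room-air. Among these 4 groups Dbp is highest in smoke (141 to 196 CPM) and Arntl is lowest there. The nicotine-free group, not drawn, had 123 to 152 CPM of Dbp and 32.0 to 36.2 CPM of Arntl.

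Promoter sequence is shown for the 3 clock genes that passed and for Hmgcs1, since their regulators have known binding motifs. The sequences are RefSeq's for GRCm38.p6, 5′ to 3′ on the gene's strand, cut where the first annotated exon begins. Capitals mark any match, on either strand, to the E-box CACGTG, the D-box core TTATGNAA, the nuclear receptor half-site AGGTCA or the sterol regulatory core TCACNCCAC. The motifs can overlap one another.
Dbp (chr7:45704997-45705087, plus strand): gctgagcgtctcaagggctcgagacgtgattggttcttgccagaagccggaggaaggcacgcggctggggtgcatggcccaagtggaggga
Arntl (chr7:113207215-113207464, plus strand): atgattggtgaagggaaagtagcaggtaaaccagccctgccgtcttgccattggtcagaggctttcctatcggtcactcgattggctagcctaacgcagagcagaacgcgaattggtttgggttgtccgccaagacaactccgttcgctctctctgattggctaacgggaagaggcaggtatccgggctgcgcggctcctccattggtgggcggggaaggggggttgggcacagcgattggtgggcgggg
Bhlhe41 (chr6:145865559-145865670, minus strand): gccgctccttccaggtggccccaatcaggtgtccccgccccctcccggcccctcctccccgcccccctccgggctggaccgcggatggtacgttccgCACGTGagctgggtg
Hmgcs1 (chr13:119690101-119690350, plus strand): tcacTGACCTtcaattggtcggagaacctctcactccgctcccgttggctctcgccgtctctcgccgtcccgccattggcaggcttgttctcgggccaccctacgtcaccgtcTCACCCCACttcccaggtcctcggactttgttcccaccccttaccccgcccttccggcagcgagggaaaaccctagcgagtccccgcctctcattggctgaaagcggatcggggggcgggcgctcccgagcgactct

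Among 32851 promoters, over the 250 bases before the start, 6.02% held the E-box, 3.07% the D-box core, 14.0% the nuclear receptor half-site and 1.05% the sterol core. Bhlhe41 held an E-box and Hmgcs1 a sterol core and a half-site, while the stretches of Dbp and Arntl held none of the 4 in these windows. Promoters were found for 18 of the 22 clock genes, 27 promoters in all, and 5 of the genes held an E-box in at least 1. This count is by gene, so it does not compare directly with the share of 6.02% by promoter. Both used the full 250 bases, whereas the printed stretches of Dbp and Bhlhe41 are cut to 91 and 112 bases. Of the 15 sterol genes found, 1 held the sterol core, which was Hmgcs1. The stretches of Mvd, Mvk and Pmvk, which also rose, held none of the 4 motifs and are not printed. A match is a description of letters and not a measured site.

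Gh, the growth hormone gene (chr11:106300271-106301865), was present in smoke and absent from the counts of Nic. Its counts were 71, 40, 41 and 58 in smoke 1 to 4 and 0 in each Nic library. At the limit that 3 counts over the group allow, 0.0393 CPM in Nic, smoke was at least 129-fold higher, at a mean of 5.09 CPM. The air set had 2, 0, 1 and 0 counts, Room-air 0, 0, 5 and 10, and the nicotine-free group 4, 4, 10 and 74. Growth hormone is made in the pituitary gland. Of 13 genes of pituitary and hypothalamus 5 could be tested, of which Gh and Pomc rose (40%, against 3.14% of all genes) and none fell. Gh entered the test through its smoke counts alone, so this share is no separate support for a rise of the list. The other tested members had negative values, the list median was -0.27, and 1 member had all smoke libraries below Nic. Prl, which encodes prolactin, had at most 4 counts in any of the 7 libraries and Cga at most 2, both too low to test. Pomc, expressed in pituitary and hypothalamus, rose (5.59, 7.97, 4.89 and 5.39 CPM in smoke, 3.43, 1.64 and 3.05 in Nic, 1.12 ± 0.28, adjusted p = 0.0471).

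Blood cell genes gave little. Of 9 erythroid genes edgeR called 0, with 2 at an unadjusted p under 0.05, DESeq2 called 2 and limma-voom 0. Of 6 lymphocyte genes 1 rose (16.7%, against 3.14% of all genes), the immunoglobulin gene Ighm (44.2, 56.1, 35.3 and 42.0 CPM in smoke, 28.3, 24.7 and 27.5 in Nic, 0.72 ± 0.15). Ighm was also higher in air than in Room-air by 1.00. The 3 neutrophil and monocyte genes tested had no call with edgeR, DESeq2 or limma-voom, and 0 at an unadjusted p under 0.05 with edgeR. Of 13 choroid plexus and ependyma genes edgeR called 0, with 2 at an unadjusted p under 0.05, DESeq2 called 1 and limma-voom 0. Ttr, the transthyretin gene that marks choroid plexus, ranged from 1671 to 24876 CPM in smoke, and Kl, which encodes klotho, from 29.7 to 667 CPM, with smoke 3 highest for both.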

How the data were processed

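Polyadenylated RNA of cerebral microvessels was measured by strand-specific, single-end sequencing. The deposited values are raw counts of reads per Ensembl gene, which the authors made with STAR and HTSeq on mm10, per the submitters' processing notes, with versions not given in the sources used here. Summary lines were left out of totals and tests. Symbols were found for 37607 of 39179 listed genes, with positions from GENCODE M21 (GRCm38).

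Smoke and Nic were compared in a fit of their 7 libraries with edgeR 4.0.16 (R 4.3.3): TMM, filterByExpr, robust quasi-likelihood F tests, two-sided, Benjamini-Hochberg adjustment, threshold 0.05. The air and Room-air sets had a fit of their own 8 libraries, and the difference of differences came from all 19. DESeq2 1.42.0, limma-voom (limma 3.58.1), other normalisations and filters, thinned counts, a minimum fold, a replicate block, marker covariates and leaving out each library were alternatives. The scripts were tested on simulated data. Same-numbered smoke and Nic libraries did not deviate together, with correlations of -0.148, -0.227 and -0.0645. 

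Genes were named by a rule: the 12 largest rises and falls among established genes past the threshold with no overlap and at least 5 CPM, up to 4 called members of each list, and a fixed set of 25 genes, of which Cyp1a1 was too low to test. Genes of highest level in lists with no call were named in part. Other members of small counts were named after their values were seen. The comparison, lists and named genes were chosen with earlier results of these data known.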

Additional observations from a re-analysis of the deposited data

Results flagged for a closer look

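Among the named genes, 19 differed by test between smoke minus Nic and air minus Room-air, in the fit of all 19 libraries with edgeR at an adjusted p under 0.05. Many named genes were chosen by their values in the smoke and Nic libraries, which that fit reuses, so this is no separate support. The log2 differences were 1.67 for Ccdc85c, 1.60 for Myom3, 1.45 for Ston2, 1.43 for Kif5a, 1.42 for Luzp2 and 1.33 for Slc25a34. They were 1.2 for Maob, 0.97 for Dbp, 0.96 for Per1, 0.93 for Aldh1l1, 0.83 for Nfkbia and 0.72 for Aldh7a1. Values of 0.70 for Tsc22d3, 0.68 for Nr1d1, 0.67 for Pgk1, 0.63 for Csf1r, 0.63 for Eno1 and 0.58 for Aco1 followed, and Arntl was the only negative one of these 19, at -0.80. For Nfkbia and Tsc22d3 the positive sign means that they fell less in smoke minus Nic than in air minus Room-air.

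Among the 4 smoke libraries, 1 library lay far from the others for 3 named genes. Smoke 2 was high for Dok6, at 14.5 CPM, and for Ston2, at 21.4 CPM. Smoke 3 was low for Mfsd2a, at 47.6 CPM. Of 123 genes examined in this way, chance flags about 1 in 20.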

How the results depend on the processing

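Against the 1049 genes called between smoke and Nic, edgeR called 1016 with RLE (980 of them among the 1049), 1167 with the upper quartile (1010), 1513 with no filter (976), 1066 with a CPM filter (1041) and 815 at equal depth (648), and limma-voom 757 (754). DESeq2 called 2801 (1587 higher, 1214 lower, 56.7% higher against 46.7%), and a fit of all 19 libraries 4017. A minimum fold of 1.2 left 20 calls, the endothelial covariate 4, the oligodendrocyte covariate 28, and the choroid plexus covariate gave 1818. Leaving out 1 library gave 2 to 2115. The replicate block left 0 with edgeR, with 3188 genes at an unadjusted p under 0.05. No label says whether equal replicate numbers mark a pair. The correlations of same-numbered libraries, given earlier, are too few to decide whether such libraries share a block.

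Of 98 named genes that passed, 8 passed with the minimum fold, 0 with the replicate block, 3 with the endothelial and 12 with the oligodendrocyte covariate, and 2 to 96 without 1 library. Over the 123 named genes and 21 settings, 1706 values kept direction and call, 833 lost the call, 27 gained it and 16 changed sign, all of genes that had not passed. Those were Icam1 (-0.81 with the oligodendrocyte covariate, -0.03 without Nic 1, -0.23 without Nic 2, -0.17 without smoke 1, up to 0.92 without Nic 3), Vcam1 (-0.50 with that covariate, -0.12 without Nic 1, -0.14 without Nic 2, -0.06 without smoke 3, up to 0.53 without Nic 3) and Ahrr (-0.23 with the endothelial covariate, -0.19 without Nic 3, up to 0.48 without Nic 2). Likewise Tiparp had 0.023 and Hmox1 -0.27 with the oligodendrocyte covariate, Cldn5 0.23 and Lcn2 0.61 with the endothelial one, Lcn2 1.41 without Nic 3 (-3.73 without smoke 3), and Kl -0.40 without smoke 3 (1.40 without smoke 4).

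The air sets gave 2716 to 3996 calls and the difference of differences 646 to 937. Why the counts moved was not tested. The smoke libraries' depth limits genes of low level.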

Other observations

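Lcn2, which encodes lipocalin 2, an acute phase protein, was high in single libraries of 3 groups. It stood at 66.4 CPM in Nic 3 and between 0.956 and 4.81 CPM in the other 6 libraries of the comparison. In the normalisation over 19 libraries Room-air 3 had 189.7 CPM, air 2 had 70.5 and air 3 had 17.7, while the 4 nicotine-free libraries had 1.01 to 3.83. Smoke minus Nic had a log2 fold change of -3.15 ± 1.59 (adjusted p = 0.227). Without Nic 3 it was 1.41.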
